A study of Mus musculus with 30 samples.

Results

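The comparison described here sets male offspring of mothers that drank bisphenol S (BPS) against male offspring of mothers that drank estradiol (E2), in liver RNA of 10-week-old ICR mice, an outbred stock. Its members were chosen by label: 3 libraries of the male BPS group and 3 of the male E2 group, 6 of the 30 libraries of the series. Dams received either compound in drinking water at 10 ng/mL with 0.001% ethanol, from the first day of pregnancy to weaning, about 40 days, with a target intake of 5 µg per kg body weight per day for both. Each group had 8 dams, and 3 offspring per sex and group were taken at random from litters of different dams. Both male groups therefore shared strain, sex, age, diet, solvent and target dose, and differed in the compound. No exposure of the offspring after weaning is stated. The other male groups of the study were exposed to 2,4-BPS or BPSIP or to ethanol alone. The first 2 of these shared the model that estimated the spread between libraries, and the male control group did not enter.

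Estradiol is the main natural estrogen of mammals and acts through estrogen receptors, of which the liver mainly makes the alpha form, encoded by Esr1. BPS is a synthetic phenol used in place of bisphenol A, for example in thermal paper, and is known as a weak estrogen receptor ligand. The adult liver takes up hormones, nutrients and cytokines from blood. Its transcripts follow the daily clock, the sex-specific rhythm of growth hormone, feeding, and inflammatory signals such as interleukin 6. No time of day, feeding state or health record of the animals at collection is given in the sources used here.

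The 6 libraries held 30281043 to 34138058 counts. The hepatocyte markers summed to 86657 to 89216 CPM (counts scaled to a common library total with edgeR's TMM factors) with BPS and to 95681 to 103214 with E2, the 4 Y-linked genes to 166 to 167 and 147 to 151 CPM, and 8 genes specific to female liver to 7.09 to 9.08 and 3.12 to 6.49 CPM. The hepatocyte sum includes Fgb, a fibrinogen chain described below, with means of 4016 CPM with BPS and 10371 CPM with E2. Of the 8 hepatocyte markers, 1 was higher with BPS, 3 with E2, and 4 did not pass the test given below. Libraries of a group were close: the common biological coefficient of variation was 0.0874, although pairs within a group differed by 6.57 to 17.6 times the sampling noise (chi-square per degree of freedom). The labels state separate livers. The mice are of an outbred stock, the libraries of a group were this close, and pooling could not be checked, so p values measure only the spread between these libraries, which may be less than that between animals. In bulk tissue, fewer cells of a type and less RNA per cell cannot be told apart.

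Of 13289 genes tested, 37.7% passed (Benjamini-Hochberg adjusted p under 0.05, edgeR quasi-likelihood test): 2302 were higher with BPS (17.3%) and 2709 higher with E2 (20.4%). At least 2-fold differences were fewer, 190 genes higher with BPS (1.43%) and 263 higher with E2 (1.98%). The 3 libraries of one group lay wholly outside the range of the other in 6262 genes (47.1%), which is the background for each gene described as not overlapping. These shares are the background against which each gene group below should be read. Fold changes are given as log2 of BPS over E2 with the standard error (SE) of the fit, so a negative value means more RNA with E2. Levels are CPM with the SD of 3 libraries. Where the E2 and BPS groups lay relative to the male 2,4-BPS and BPSIP groups varied by gene. Among the 263 genes at least 2-fold higher with E2, the E2 mean was the highest of the 4 exposed male groups while the BPS mean was not the lowest in 89, the BPS mean alone was extreme in 39 and both were in 126. Among the 190 at least 2-fold higher with BPS, the corresponding numbers were 54 with E2 alone, 45 with BPS alone and 84 with both.

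**Figure D1:**
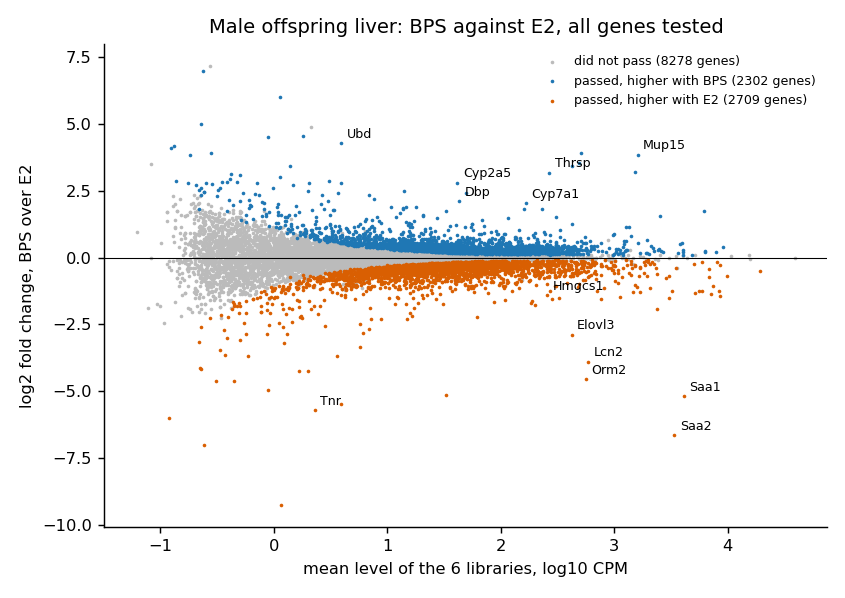
Log2 fold change of BPS over E2 (vertical axis) against the mean level of the 6 male libraries (log10 CPM, horizontal axis) for 13289 genes, a point each, blue and orange where the test was passed. The acute phase genes Saa2, Saa1, Orm2 and Lcn2 lie far below the line at high levels, and Mup15, Thrsp, Cyp2a5, Dbp and Cyp7a1 above it.

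The contrast also followed transcript length. In 11326 genes that averaged 1 CPM or more and had a length, split into 5 equal classes by length, the median log2 fold change went from 0.17 in the shortest class to -0.17 in the longest. In the shortest class 37.3% of genes passed as higher with BPS and 11.3% as higher with E2, and in the longest class 7.33% and 38.1%. In females the same contrast had medians of 0.01 and 0.02 in these classes. The difference between shortest and longest class, on the log2 scale against the mean of 12 exposed male libraries, was 0.16 to 0.20 in the BPS libraries and -0.21 to -0.07 in the E2 libraries, with 0.08 to 0.12 for 2,4-BPS and -0.18 to -0.04 for BPSIP. A fit with a length trend removed from each library, chosen after seeing the data, passed 4550 genes, of which 3933 had also passed without the correction. For the genes named in the text that fit's value is given where it changed a call, and for the lists where it moved a printed median by over 1.5 times. Among called genes it moved 8 of the printed values by over 1.5 times without ending the call: Il6ra to -0.28, Hamp to -0.79, Ftl1 to 0.29, Rora to -0.36, Mup3 to 0.18, Cyp2d9 to -0.25, Prlr to -0.30 and Apob to -0.46. RNA quality and library preparation, which the sources used here do not record by sample, were not tested for a part in this trend. Small differences of very short or very long transcripts should be read with this trend beside them.

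Acute phase genes gave the largest group of differences. These genes encode plasma proteins and defence factors that hepatocytes make in bulk when interleukin 6 and related cytokines activate STAT3 and C/EBP factors. Of 41 tested, 37 were higher with E2 and 1, F3, was higher with BPS, and 23 of the 37 were at least 2-fold higher. The median log2 fold change of the list was -1.06, against -0.01 over all genes tested.

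Saa1 and Saa2 encode serum amyloid A proteins, which travel on high density lipoprotein. In the 3 BPS livers Saa1 stood at 224, 233 and 200 CPM, and in the 3 E2 livers at 7743, 8112 and 8006 CPM. The groups did not overlap, and the E2 mean of 7954 ± 190 CPM was 36.3-fold the BPS mean of 219 ± 16.9 CPM (log2 -5.18 ± 0.06, adjusted p = 1.22e-25). Saa2 had 74.1, 69.5 and 58.0 CPM with BPS and 6316, 6934 and 6894 CPM with E2, 99.9-fold more with E2 (-6.64 ± 0.09, adjusted p = 1.88e-16). The male 2,4-BPS and BPSIP groups had Saa1 means of 244 ± 17.7 and 38.4 ± 2.51 CPM, so the E2 group stood apart from the other exposed males and the BPS group stood near 2,4-BPS. Reads of Saa1 and Saa2 may be shared, since the genes are near copies. Their upstream regions are shown because the pair had the largest differences at high level and C/EBP factors are known regulators of the family. The 250 bases before each start, from RefSeq on GRCm38.p6, are given on the gene's strand, and capitals mark matches to the C/EBP motif TTNNGNAA, searched on both strands. Saa1 lies on the minus strand (chr7:46742981-46743230) and Saa2 on the plus strand (chr7:46751583-46751832), and the 2 regions were identical at 94.8% of aligned positions.
Saa1: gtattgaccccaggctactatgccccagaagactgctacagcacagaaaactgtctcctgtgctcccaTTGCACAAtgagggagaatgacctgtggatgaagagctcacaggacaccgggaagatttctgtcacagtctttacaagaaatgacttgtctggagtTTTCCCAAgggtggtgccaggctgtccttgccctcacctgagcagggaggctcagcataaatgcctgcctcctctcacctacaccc
Saa2: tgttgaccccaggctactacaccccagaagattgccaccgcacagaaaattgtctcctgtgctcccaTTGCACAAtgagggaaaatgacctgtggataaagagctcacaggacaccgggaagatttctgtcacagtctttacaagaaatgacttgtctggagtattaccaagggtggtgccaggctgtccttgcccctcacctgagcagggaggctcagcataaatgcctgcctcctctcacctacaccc
Of 32 acute phase genes with an upstream region in the table, 21 (65.6%) held this motif, against 33.69% of 10616 tested genes. For the STAT motif TTCNNNGAA the shares were 28.1% (9 genes, Socs3, Fga, Fgb, Apcs and Steap4 among them) and 7.49%. A match describes the letters alone, and the 2 motifs can overlap.

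Other secreted acute phase proteins differed in the same direction. Orm2, an alpha-1-acid glycoprotein that binds drugs and steroids, was at 52.2, 50.6 and 37.2 CPM with BPS and 996, 1144 and 1106 CPM with E2 (-4.54 ± 0.14). Lcn2, lipocalin 2, which binds the iron carriers of bacteria, was at 85.3, 86.2 and 53 CPM with BPS and 1011, 1145 and 1176 CPM with E2 (-3.89 ± 0.20, adjusted p = 4.37e-07). No library of one group reached the other group for either gene, and BPS replicate 3 was the lowest of all. Orm1 was 3.76-fold and Orm3 4.94-fold higher with E2. Apcs, serum amyloid P, was at 393 ± 6.65 CPM with BPS and 1144 ± 37.4 CPM with E2 (-1.54 ± 0.05). The haem scavenger Hpx (-1.23 ± 0.04) and the haemoglobin scavenger Hp (-1.06 ± 0.05) were 2.35-fold and 2.08-fold higher with E2. Fgl1, a fibrinogen-like protein, differed by -1.46 ± 0.04, and Serpina3n, a protease inhibitor, by -0.94 ± 0.04. Crp, which in mice is only weakly induced in inflammation, differed less (-0.47 ± 0.04).

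Components of the cytokine pathway itself were also higher with E2. Socs3, the feedback inhibitor that STAT3 induces, was at 4.81, 6.57 and 6.75 CPM with BPS and 27.5, 23.5 and 25.6 CPM with E2, a 4.22-fold difference (-2.08 ± 0.12). Stat3 differed by -0.90 ± 0.05, the interleukin 1 receptor Il1r1 by -1.08 ± 0.06 and the interleukin 6 receptor Il6ra by -0.48 ± 0.07. The list's 1 member higher with BPS, F3 or tissue factor, did so narrowly (0.50 ± 0.20, adjusted p = 0.0453), and that call was lost with the length trend removed and on leaving out any of the 6 libraries but BPS replicate 1. Hamp2 did not pass (1.47 ± 0.465 CPM with BPS, 1.94 ± 0.378 CPM with E2), and passed as higher with E2 with the length trend removed (-0.77, adjusted p = 0.0250).

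**Figure D2:**
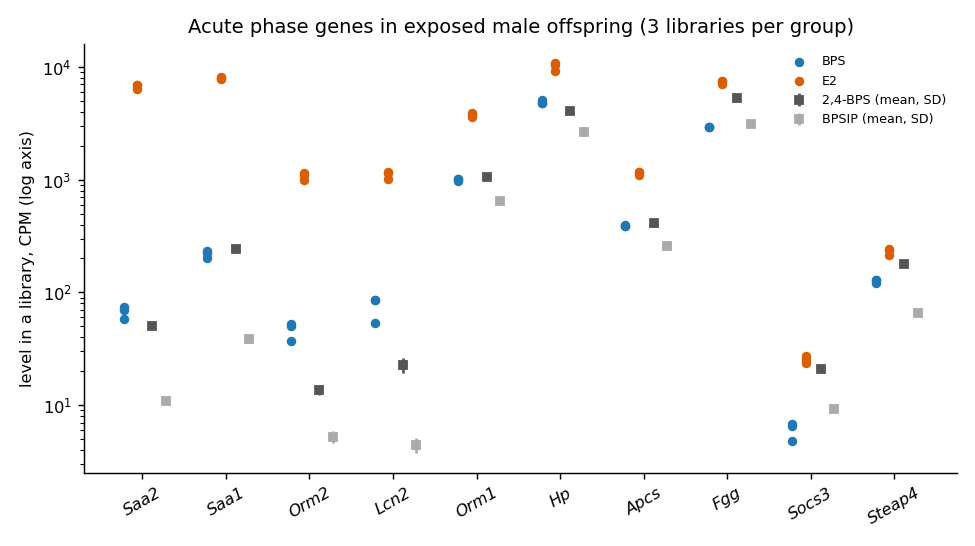
Level of 10 acute phase genes (CPM, log axis) in each male BPS and E2 library, a point each, with the mean and SD of the male 2,4-BPS and BPSIP groups as squares. The 3 E2 points lie above the 3 BPS points for each gene drawn, by 99.9-fold for Saa2 and 2.08-fold for Hp.

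Neutrophil markers moved with this group. Of 12 tested, 10 were higher with E2 and none with BPS, Lcn2 among them. Without Lcn2, which hepatocytes also make, the 13 markers summed to 18.6 to 22.6 CPM with BPS and 46.5 to 52.3 CPM with E2, against 14.1 to 21.0 CPM for 2,4-BPS and 6.88 to 10.7 CPM for BPSIP. S100a8, a calcium-binding granule protein, was at 3.44 ± 0.393 and 8.77 ± 1.38 CPM. Prtn3, the granule protease proteinase 3 and not on the list, was at 1.03 ± 0.0773 and 10.5 ± 1.12 CPM (-3.35 ± 0.24). No listed marker was at 0 in either group. The part of these cells in the hepatocyte differences was not tested. Of 18 macrophage markers 2 were higher with BPS and 7 with E2, and the list summed to 1101 to 1126 CPM with BPS and 1194 to 1268 CPM with E2.

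Complement and coagulation genes, made by hepatocytes and partly shared with the acute phase list, were higher with E2 in 36 of 46 and higher with BPS in 1, with a median of -0.38. The fibrinogen chains led the list. Fgg was at 2933, 2909 and 2938 CPM with BPS and 7042, 7533 and 7496 CPM with E2 (-1.33 ± 0.04), Fgb differed by -1.37 ± 0.04 and Fga by -1.26 ± 0.04. The central complement component C3 differed by -0.70 ± 0.08 and plasminogen (Plg) by -0.70 ± 0.04. Cfhr3 was at 0.0944 to 0.456 CPM with BPS and 2.17 to 2.27 CPM with E2 (-3.20 ± 0.65). C9, the pore-forming component, went the other way (1919 ± 75.8 and 1306 ± 30.3 CPM, 0.56 ± 0.04), and without E2 replicate 1 the count higher with BPS was 2.

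Metal handling followed in part. Of 24 genes, 15 were higher with E2 and 3 with BPS. The metallothioneins Mt2 and Mt1, which bind zinc and copper, were 2.88-fold and 1.92-fold higher with E2 (-1.53 ± 0.05 and -0.94 ± 0.05). Ceruloplasmin, the copper oxidase of plasma (Cp), differed by -1.14 ± 0.05, the manganese exporter Slc30a10 by -1.17 ± 0.08, and transferrin (Trf) by -0.49 ± 0.04. Hamp, which encodes the iron hormone hepcidin, was at 360 ± 17.7 CPM with BPS and 475 ± 2.34 CPM with E2 (-0.40 ± 0.04), the lowest and second lowest of the 4 exposed male means. The 3 genes higher with BPS were the iron store subunits Fth1 (0.37 ± 0.04) and Ftl1 (0.51 ± 0.04) and the transferrin receptor Tfrc (0.56 ± 0.08).

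The daily clock differed in both of its arms. In this loop the factors encoded by Arntl, Clock and Npas2 switch on E-box genes, among them Per and Cry, whose products then repress them, and Dbp, Tef and Hlf pass the rhythm on through D-boxes. Of 15 repressors and output genes, 10 were higher with BPS and 1 (Bhlhe40) with E2, with a median of 0.52. Of 7 activators and genes of the opposite phase, 5 were higher with E2 and none with BPS, with a median of -0.71. Removing the length trend gave medians of 0.68 and -0.48. Without BPS replicate 2 the counts against these directions were 2 and 1, and without E2 replicate 2 the first of them was 2.

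Dbp, a D-box activator with one of the steepest daily rhythms in liver, was at 64.1, 71.1 and 74.2 CPM with BPS and 17.5, 16.4 and 14.9 CPM with E2, a 4.29-fold difference (2.10 ± 0.07, adjusted p = 3.64e-34). Per2, a core repressor, was at 23.9, 26.2 and 19.3 CPM and at 5.82, 6.40 and 6.80 CPM (1.87 ± 0.13), and Per3 at 10.9, 14.1 and 12.2 CPM and at 5.48, 5.60 and 4.10 CPM (1.30 ± 0.14). Groups did not overlap for any of the 3. Wee1, a cell cycle kinase under clock control, was 4.51-fold higher with BPS (2.17 ± 0.21), and Usp2, a deubiquitinase, 2.45-fold (1.29 ± 0.12). Ciart, a repressor of the activators, differed by 1.35 ± 0.16, Tef by 0.61 ± 0.05 and Hlf by 0.41 ± 0.07. Per1 (20.9 ± 0.794 and 18.3 ± 0.544 CPM) and Cry2 (29.8 ± 1.01 and 33.8 ± 4.6 CPM) did not pass, although Per1 did so as higher with BPS with the length trend removed (0.27, adjusted p = 0.0216). Nor did Nr1d1, which encodes the repressor REV-ERB alpha (58.2 ± 2.20 and 63.7 ± 0.717 CPM, -0.13 ± 0.06, adjusted p = 0.0589). With the length trend removed Nr1d1 passed as higher with E2 (-0.14, adjusted p = 0.0424), and it did so without BPS replicate 2 (-0.17, adjusted p = 0.0366).

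In the other arm, Arntl, which encodes BMAL1, was at 8.62, 5.60 and 6.21 CPM with BPS and 21.8, 23.8 and 21.9 CPM with E2 (-1.72 ± 0.13, adjusted p = 6.61e-18). Each E2 library was thus above each BPS library. Its partner Clock differed by -0.71 ± 0.06 and Npas2, which can replace Clock, by -2.59 ± 0.50 at 0.345 ± 0.222 and 2.09 ± 0.566 CPM. Nfil3, a D-box repressor, was 1.94-fold higher with E2 (-0.96 ± 0.09) and Rora, an activator of Arntl, 1.52-fold (-0.60 ± 0.07). Cry1 did not pass (-0.13 ± 0.12). For Dbp the exposed groups differed more widely than this pair, and for Arntl the other exposed groups lay between BPS and E2. The BPSIP males had a Dbp mean of 97.9 ± 3.13 CPM and an Arntl mean of 8.22 ± 1.07 CPM. The 2,4-BPS males had 33.1 ± 1.56 and 17.0 ± 1.31 CPM. E2 thus had the lowest Dbp and the highest Arntl of the 4 groups.

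**Figure D3:**
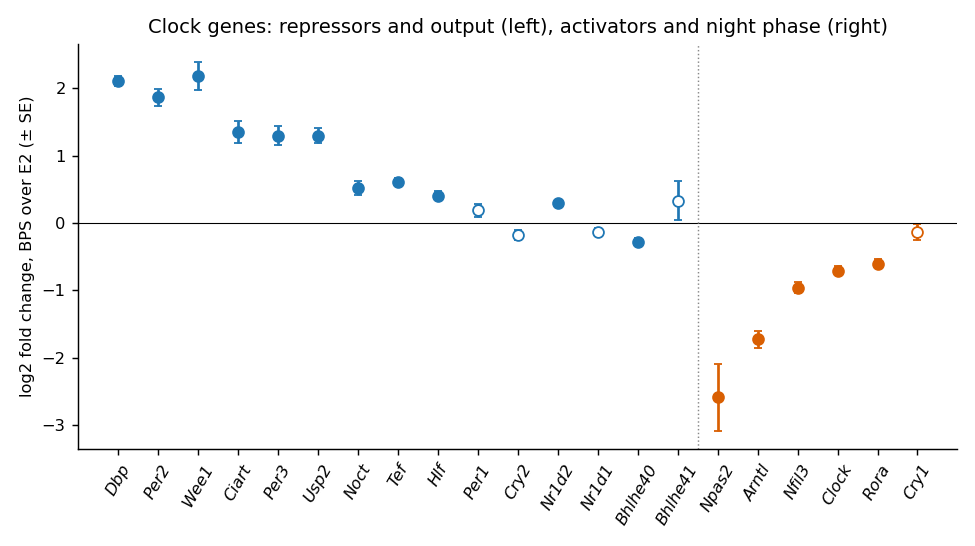
Log2 fold change of BPS over E2 with its SE for 15 clock repressors and output genes (left of the dotted line) and 6 activators and genes of the opposite phase (right), filled where the test was passed. Dbp, Per2 and Wee1 lie near 2 and Npas2 and Arntl below -1.5.

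The upstream region of Per3 is shown as the clock repressor whose 250 bases before the start held 2 D-boxes (minus strand, chr4:151044666-151044915, GRCm38.p6, RefSeq), with matches to TTATGNAA in capitals.
Per3: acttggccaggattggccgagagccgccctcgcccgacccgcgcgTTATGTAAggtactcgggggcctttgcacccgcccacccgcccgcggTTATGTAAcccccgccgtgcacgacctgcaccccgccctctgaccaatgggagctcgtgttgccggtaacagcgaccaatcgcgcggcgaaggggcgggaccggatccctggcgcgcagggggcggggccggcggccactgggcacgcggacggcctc
Of 12 repressor and output genes in the table, 3 (25%: Noct, Per1 and Per3) held TTATGNAA, against 2.71% of all, and 4 (33.3%: Bhlhe41, Ciart, Per1 and Tef) held the E-box CACGTG, against 9.64%, on both strands. A D-box of this form is also a match to TTNNGNAA.

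Cholesterol synthesis was higher with E2 as a group. SREBP2, from Srebf2, drives these genes when sterols in the cell are low. Of 25 genes 23 were higher with E2 and none with BPS, with a median of -0.54, and removing the length trend left the same 23 and 0. Hmgcs1, which makes the precursor of mevalonate, was at 144, 143 and 133 CPM with BPS and 358, 378 and 383 CPM with E2, 2.67-fold more and with no overlap (-1.42 ± 0.05, adjusted p = 1.98e-34). Cyp51, Nsdhl and Msmo1 of the later sterol steps differed by -1.15 ± 0.05, -1.12 ± 0.07 and -0.97 ± 0.05, and the squalene epoxidase Sqle by -1.03 ± 0.07. Srebf2 itself was 1.75-fold higher with E2. Stard4, a sterol carrier, did not pass (85.0 ± 1.26 and 84.6 ± 3.56 CPM). The BPSIP males were lower than either group for Hmgcs1 (82.5 ± 0.796 CPM), and the 2,4-BPS males lay between (211 ± 8.72 CPM). Hmgcs1 (plus strand, chr13:119690101-119690350, GRCm38.p6, RefSeq) is shown because it led the list and was the single one of 17 members in the table, 5.90%, whose 250 upstream bases held TCACNCCAC, a form of the sterol regulatory element in capitals here, against 1.29% of all.
Hmgcs1: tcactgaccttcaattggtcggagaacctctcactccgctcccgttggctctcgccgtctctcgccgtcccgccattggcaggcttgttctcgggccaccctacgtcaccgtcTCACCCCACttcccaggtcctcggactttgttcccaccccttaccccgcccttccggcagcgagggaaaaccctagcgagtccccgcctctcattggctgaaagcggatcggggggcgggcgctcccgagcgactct

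Fatty acid synthesis split. Of 27 genes, 10 were higher with BPS and 12 with E2. Thrsp, a regulator of lipid synthesis that responds to thyroid hormone, carbohydrate and the clock, was at 457, 496 and 493 CPM with BPS and 55.0, 52.5 and 53.2 CPM with E2, a 9-fold difference with no overlap (3.17 ± 0.06, adjusted p = 1.63e-37). Its level in 2,4-BPS and BPSIP males was 114 ± 7.47 and 99.8 ± 10.3 CPM, so the BPS group stood above the other 3. Fatty acid synthase (Fasn, 0.55 ± 0.10), its activator Srebf1 (0.46 ± 0.06), Elovl6 (0.47 ± 0.09) and the triokinase Tkfc of fructose use (0.84 ± 0.05) were higher with BPS. Against this, Scd1, which makes monounsaturated fatty acids, was at 191, 204 and 199 CPM with BPS and 415, 414 and 414 CPM with E2 (-1.07 ± 0.04). Elovl3, an elongase of very long chains that is also higher in male liver, was at 93.8, 105.04 and 104 CPM and at 710, 769 and 753 CPM, 7.37-fold more with E2 (-2.88 ± 0.06). Acly and Acaca, which supply the first steps, did not pass (0.03 ± 0.05 and 0.04 ± 0.08), but Acaca passed as higher with BPS with the length trend removed (0.26, adjusted p = 0.00559).

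Fatty acid oxidation genes under the nuclear receptor PPAR alpha leaned towards BPS, 23 of 43 against 9 with E2, with a median of 0.14 (0.09 with the length trend removed). The members higher with BPS included the enzymes of the oxidation spiral Acadm, Acadl and Hadha. Ehhadh, of the peroxisomal spiral, was 1.70-fold (0.76 ± 0.04) and the hydroxylase Cyp4a14 1.79-fold (0.84 ± 0.04) higher with BPS. Control points went the other way: Cpt1a, the gate to mitochondria, was 1.27-fold (-0.34 ± 0.05) and Ppara itself 1.30-fold (-0.38 ± 0.05) higher with E2. Fgf21, a fasting hormone, was at 5.07 ± 1.11 and 4.80 ± 0.615 CPM (0.08 ± 0.20, adjusted p = 0.800), and did not pass, its sign differing between fits.

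Of 20 lipid droplet genes, 11 were higher with BPS and 4 with E2. Cidec, which lets droplets fuse, was at 28.6, 29.5 and 26.0 CPM with BPS and 8.66, 6.68 and 7.40 CPM with E2 (1.89 ± 0.13), apart in every library. Fitm1, a droplet formation gene, differed by 1.16 ± 0.16 and Hsd17b13 by 0.34 ± 0.05, while the droplet coat gene Plin2 was higher with E2 (-0.50 ± 0.04). Among 30 apolipoprotein and lipoprotein genes 7 were higher with BPS and 12 with E2 (5 and 16 with the length trend removed, median -0.11 and then -0.24). Apoa4 was 2.18-fold higher with BPS (1.13 ± 0.04), and Angptl8, a feeding-induced inhibitor of lipoprotein lipase, 2.57-fold (1.36 ± 0.11). Apob, among the longest transcripts of the list, differed by -0.73 ± 0.06, and by -0.46 with the trend removed. Apoc3, among the shortest, differed by 0.28 ± 0.04 and then by -0.004, no longer past the test (adjusted p = 0.957). Apoa5 (-0.38 ± 0.04) and the HDL receptor Scarb1 (-0.62 ± 0.05) were higher with E2.

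Glucose genes were split, 11 of 31 higher with BPS and 12 with E2. Pfkfb3, which promotes glycolysis, was 2.92-fold higher with BPS (1.55 ± 0.09), and Gbe1, the glycogen branching enzyme, 1.93-fold (0.95 ± 0.06). Of the fasting-induced genes, Pck1 (-0.41 ± 0.04), G6pc (-0.59 ± 0.04), Igfbp1 (-0.90 ± 0.06), Ppargc1a (-0.63 ± 0.17) and the kinase Sik1 (-1.56 ± 0.09) were higher with E2, as was Irs2 (-0.74 ± 0.09), which relays the insulin signal.

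In bile acid metabolism 14 of 28 genes were higher with E2 and 4 with BPS, with a median of -0.17 that was -0.27 with the length trend removed. Cyp7a1, which sets the rate at which bile acids are made, was at 272, 263 and 263 CPM with BPS and 63.2, 63.7 and 69.2 CPM with E2, 4.07-fold more with BPS (2.03 ± 0.05, adjusted p = 1.83e-40). Its repressor Nr0b2 (SHP) was on the other side, at 22.7, 21.3 and 21.4 CPM and at 52.5, 50.2 and 54.4 CPM (-1.26 ± 0.08). Neither gene's groups overlapped. The bile salt pump Abcb11 (-0.61 ± 0.05), the phospholipid transporter Abcb4 (-0.55 ± 0.05) and the 12-alpha-hydroxylase Cyp8b1 (-0.57 ± 0.05) were higher with E2, and the bile acid receptor Nr1h4 higher with BPS (0.45 ± 0.05). The uptake carrier Slc10a1 did not pass (592 ± 14.5 and 587 ± 22.9 CPM). The oxysterol hydroxylase Cyp7b1 did not pass either (-0.07 ± 0.04, adjusted p = 0.165), but passed as higher with E2 with the length trend removed (-0.13, adjusted p = 0.00654).

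Major urinary proteins, the pheromone carriers that male liver secretes in large amounts, were higher with BPS in 12 of 21 and with E2 in 4, with a median of 0.77 (0.54 with the length trend removed). These genes are near copies on 1 chromosome, so reads may be shared and single values are uncertain. Mup16 was at 808, 709 and 818 CPM with BPS and 74.0, 72.7 and 74.2 CPM with E2 (3.40 ± 0.05), and Mup7 at 9397, 9620 and 9837 CPM and at 3103, 2761 and 2714 CPM (1.75 ± 0.04). Both were apart in every library. Mup1, Mup11, Mup14 and Mup15 were 15-fold, 11.5-fold, 9.06-fold and 14.3-fold higher with BPS, with wide spread in some: Mup15 ran from 1784 to 3942 CPM with BPS, and Mup14 from 96.9 to 615 CPM with E2. Mup20, also called darcin, differed by 1.55 ± 0.30. Mup3 was higher with BPS by 0.39 ± 0.04, a call that was lost when length and GC trends were removed (0.06, adjusted p = 0.112). Mup17 (-1.44 ± 0.16), Mup12, Mup10 and Mup21 were higher with E2.

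Sex-biased genes did not move as a block. Of 36 male-biased genes 16 were higher with BPS, 5 of them Mup genes, and 13 with E2, and of 36 female-biased genes 8 were higher with BPS (5 when genes under 1 CPM were left out and 13 in a fit of all 15 male libraries) and 6 with E2. Besides the Mup genes, Selenbp2 (1.13 ± 0.04) and Keg1 (0.86 ± 0.05) of the male-biased list were higher with BPS, and Elovl3 (-2.88 ± 0.06) was higher with E2. At least 2-fold differences of the male-biased list numbered 6 with BPS and 4 with E2. The male steroid dehydrogenase Hsd3b5 (0.15 ± 0.04), the hydroxylase Cyp2d9 (-0.16 ± 0.04) and Cyp4a12a (-0.14 ± 0.04) differed by little, and Hsd3b5 no longer passed with the length trend removed (0.035, adjusted p = 0.555). Of the female-biased genes, Acot3, a peroxisomal thioesterase, was higher with BPS (1.44 ± 0.17), and Prlr, the prolactin receptor (-0.53 ± 0.05), Cyp2c39 (-0.51 ± 0.05) and the female transcription factor Cux2 (0.576 ± 0.292 and 2.14 ± 0.143 CPM, -1.89 ± 0.40) were higher with E2. The larger differences of this list lay more often with BPS. By at least 2-fold 6 members were higher with BPS and 1 with E2, against 1.43% and 1.98% of all genes tested. The list's median was 0.40, although 22 members did not pass. Its share past the test, 38.9%, was near the 37.7% of all genes tested.

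Genes of the growth hormone axis were higher with E2 in 10 of 21 and with BPS in 4. Growth hormone signals through Ghr and STAT5 to Igf1, with Socs2 and Cish as feedback inhibitors. Socs2 was at 29.1 ± 1.71 CPM with BPS and 14.0 ± 0.602 CPM with E2 (1.05 ± 0.09), and Onecut1, a hepatocyte factor under this axis, at 23 ± 0.424 and 9.67 ± 0.457 CPM (1.25 ± 0.11). Ghr was slightly higher with E2 (-0.25 ± 0.04). Cish did not pass (11.5 ± 1.01 and 12.0 ± 1.24 CPM), and neither did Igf1 (846 ± 5.31 and 883 ± 14.7 CPM, -0.06 ± 0.04, adjusted p = 0.227), whose sign turned and which passed with the length trend removed (0.11, adjusted p = 0.0161).

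Hormone receptors and steroid enzymes, the group nearest to the estrogenic question, were split, with 11 of 33 higher with BPS and 10 with E2. The first count was 6 with length and GC trends removed, and the median of -0.11 was -0.06 with the length trend removed. Esr1, the estrogen receptor alpha, was at 12.2, 13.8 and 10.9 CPM with BPS and 19.0, 25.3 and 24.8 CPM with E2, 1.87-fold more with E2 and with no overlap (-0.91 ± 0.12, adjusted p = 5.11e-09). The 2,4-BPS and BPSIP males had 13.5 ± 0.606 and 11.2 ± 1.97 CPM, close to BPS. The thyroid hormone receptor Thrb (-0.54 ± 0.07), the androgen-activating Srd5a1 (-0.62 ± 0.06) and the retinol and androgen oxidase Hsd17b6 (-0.84 ± 0.05) were higher with E2, and the steroid reductase Akr1c14 (0.76 ± 0.05) and Hsd3b3 (0.72 ± 0.05) higher with BPS. Sult1e1, the sulfotransferase that inactivates estrogens, was at 1.76, 0.943 and 1.05 CPM with BPS and 0.0945, 0.0923 and 0.347 CPM with E2 (2.79 ± 0.70, adjusted p = 0.00093), a difference between low levels.

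Xenobiotic enzymes were higher with BPS in 30 of 70 and with E2 in 19. The median was 0.18, and 0.06 with the length trend removed. Transferases and cytochrome P450 enzymes are described here, the former joining a carrier group to a compound and the latter oxidizing it. Gstm3 was at 87.7, 88.8 and 74.9 CPM with BPS and 13.9, 16.3 and 17.6 CPM with E2 (2.4 ± 0.09), with a wide gap between groups. Gstm1, with which Gstm3 may share reads, was 1.84-fold (0.88 ± 0.04) and Sult1a1 1.90-fold (0.93 ± 0.05) higher with BPS. Cyp2a5, a coumarin hydroxylase, was at 75.2, 75.4 and 67.3 CPM and at 10.7, 11.1 and 9.67 CPM (2.79 ± 0.07), while 2,4-BPS males had 441 ± 52.6 CPM. Cyp3a13 (86.7 ± 4.77 and 284 ± 7.30 CPM, -1.71 ± 0.05) and Cyp1a2 (387 ± 7.61 and 583 ± 29.2 CPM, -0.59 ± 0.04), a target of the aryl hydrocarbon receptor, were higher with E2. The marker genes of the receptors CAR and PXR differed by little or at low level: Cyp2b10 by 0.61 ± 0.20 (4.11 ± 0.189 and 2.70 ± 1.00 CPM) and Cyp3a11 by -0.14 ± 0.04. Without E2 replicate 2 or 3 Cyp2b10 no longer passed (adjusted p = 0.0578 and 0.143). The receptor genes Nr1i3 and Nr1i2 did not pass (-0.06 ± 0.05 and 0.05 ± 0.06). Of 6 Cyp4a genes, also alike in sequence, 3 were higher with BPS and 2 with E2, the latter count being 1 without BPS replicate 1, E2 replicate 2 or E2 replicate 3.

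Antioxidant genes under NRF2 were higher with BPS in 14 of 25, among them Gsta2 (0.93 ± 0.09), and with E2 in 2, among them Osgin1 (-0.98 ± 0.05). The glutathione synthesis gene Gclc differed by -0.24 ± 0.04 and Nqo1, a standard NRF2 target, by 0.51 ± 0.20 (adjusted p = 0.0338), a call lost with the length trend removed (0.40, adjusted p = 0.116). The NRF2 list shares its glutathione transferases with the xenobiotic list.

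Heat shock chaperones were higher with BPS in 19 of 22 and with E2 in none, with a median of 0.59. HSF1 induces these genes when unfolded proteins accumulate in the cytosol. Hspa1a, an inducible HSP70, was at 17.1, 18.9 and 15.3 CPM with BPS and 4.44, 4.99 and 4.54 CPM with E2 (1.88 ± 0.11), and its near copy Hspa1b, with which it may share reads, at 54.6, 51.4 and 42.1 CPM and at 21.2, 21.3 and 22.6 CPM (1.19 ± 0.07). Neither gene's groups overlapped. The cochaperone Dnajb1 was 2.33-fold (1.22 ± 0.07), Hsp90aa1 2.01-fold (1.01 ± 0.05), mitochondrial Hspe1 2.04-fold (1.03 ± 0.05) and Fkbp4, a partner of steroid receptors, 1.68-fold (0.75 ± 0.04) higher with BPS. Hsf1 itself did not pass (11.4 ± 0.137 and 12.3 ± 1.46 CPM). The 2,4-BPS males had more Hspa1a than either group, 44.2 ± 4.30 CPM, and BPSIP males had 15.2 ± 1.16 CPM, so E2 was the lowest of the 4. Hspa1a (minus strand, chr17:34972157-34972406, GRCm38.p6, RefSeq) is shown with the match to GAANNTTC, a pair of heat shock units, in capitals. Its 250 upstream bases were identical to those of Hspa1b at 98.8% of positions.
Hspa1a: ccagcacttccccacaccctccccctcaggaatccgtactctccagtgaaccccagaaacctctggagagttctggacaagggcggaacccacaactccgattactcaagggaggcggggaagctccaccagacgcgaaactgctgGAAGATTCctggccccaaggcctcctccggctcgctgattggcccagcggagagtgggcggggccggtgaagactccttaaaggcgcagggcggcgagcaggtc
This motif, which reads the same on both strands, was in 7 of 17 chaperone genes in the table (41.2%: Dnaja1, Fkbp4, Hspa1a, Hspa1b, Hspb1, Hspd1 and Hspe1), against 6.27% of all.

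Stress genes of the endoplasmic reticulum were split as a list: 11 of 30 were higher with BPS and 12 with E2. Of the folding genes of this compartment, Hsp90b1 (0.62), Pdia3 (0.52) and Sdf2l1 (0.73) were higher with BPS, and Hyou1 (-0.51) was higher with E2. Each of these passed with the length trend removed. The degradation genes Syvn1 (-1.33 ± 0.06), Sel1l (-0.78 ± 0.05) and the cochaperone Dnajb9 (-0.94 ± 0.05) were higher with E2. Derl3, of the same degradation route, was at 24.0 ± 1.5 and 4.32 ± 0.416 CPM, higher with BPS (2.47 ± 0.13), as was the stress factor Ddit3 (CHOP, 1.27 ± 0.18). The central chaperone Hspa5 did not pass (-0.10 ± 0.04, adjusted p = 0.0533), nor did Xbp1 (0.02 ± 0.04). Of 23 ATF4 target genes 3 were higher with BPS and 6 with E2 (median 0.08, and -0.0034 with the length trend removed), with Chac1 at 3.28 ± 0.287 and 6.44 ± 0.496 CPM (-0.97 ± 0.19) and Asns, asparagine synthetase, at 5.91 ± 1.34 and 2.76 ± 0.551 CPM (1.10 ± 0.23).

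Immediate early genes, which rise within minutes of a stimulus, handling included, were higher with E2 in 15 of 26 and with BPS in 2, with a median of -0.59. Nr4a1, an orphan receptor, was at 2.01, 1.34 and 1.14 CPM with BPS and 11.3, 11.8 and 8.85 CPM with E2 (-2.83 ± 0.21). Egr1 was at 2.11, 2.68 and 4.09 CPM and at 15.7, 12.2 and 15.7 CPM (-2.30 ± 0.14). For both genes each E2 library exceeded each BPS library. Junb and Jun were 2.57-fold and 2.51-fold higher with E2 (-1.36 ± 0.07 and -1.33 ± 0.09), and Fos was at 0.999 ± 0.415 and 3.09 ± 0.388 CPM. E2 was not the extreme here: BPSIP males had 39.7 ± 0.907 CPM of Egr1 and 32.7 ± 4.08 CPM of Fos. Of 20 p53 targets and growth restraint genes, 7 were higher with E2 and none with BPS, among them the cell cycle inhibitor Cdkn1a (12.2 ± 2.03 and 25.8 ± 1.06 CPM, -1.08 ± 0.12), Btg2 (-1.74 ± 0.13), Trp53inp1 (-0.92 ± 0.06) and Bbc3 (-1.09 ± 0.19). Btg2 is also an immediate early gene. Of 34 cell cycle genes, 4 were higher with each compound, at low levels: the replication genes Mcm6 (1.25 ± 0.27), Ccne2 and Tk1 with BPS and Cdc20 of mitosis (-2.04 ± 0.62) with E2. These counts were unstable: leaving out BPS replicate 1 gave 2 higher with BPS, and leaving out any of the other 5 libraries gave 2 higher with E2. Ccne2 (1.08 ± 0.36) no longer passed without BPS replicate 1 or E2 replicate 1 (adjusted p = 0.108 and 0.0524).

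Interferon response genes leaned towards BPS by small amounts, 19 of 44 against 2 with E2, with a median of 0.25. The resistance GTPase genes Igtp (69.4 ± 2.43 and 45.2 ± 1.61 CPM, 0.62 ± 0.06) and Ifi47 (0.77 ± 0.09) passed, as did Ifi35 (0.70 ± 0.09), which encodes no GTPase. Other GTPase genes of this kind varied: Tgtp1 and Tgtp2 differed by 0.85 and 1.07, but Irgm1, Irgm2 and Iigp1 by 0.04, -0.09 and 0.01. Ubd, a ubiquitin-like modifier induced by interferon gamma, was at 9.91, 8.06 and 4.57 CPM with BPS and 0.409, 0.400 and 0.347 CPM with E2 (4.27 ± 0.37), with BPS replicate 3 the lowest of its group and still well above E2. Its level was 0.360 ± 0.248 and 0.512 ± 0.119 CPM in 2,4-BPS and BPSIP males, so BPS stood alone. Ifit1 did not pass (7.40 ± 0.326 and 7.45 ± 0.785 CPM). Of 23 antigen presentation genes 11 were higher with BPS and 4 with E2, with a median of 0.16 that was 0.003 with the length trend removed. The class II genes Cd74 (0.86 ± 0.05), H2-Aa (0.80 ± 0.10) and H2-Ab1 (0.79 ± 0.10) were higher with BPS. Class I genes went both ways: H2-T23 (-0.82 ± 0.05) and H2-D1 (-0.55 ± 0.04) were higher with E2, and H2-K1 (0.20 ± 0.05) and the light chain B2m (0.17 ± 0.04) with BPS. With the length trend removed H2-K1 (0.12, adjusted p = 0.0504) and B2m (-0.07, adjusted p = 0.111) no longer passed. T and NK cell markers summed to 10.1 to 10.5 CPM with BPS and 9.41 to 11.6 CPM with E2.

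Urea cycle and amino acid genes were higher with BPS in 17 of 42 and with E2 in 10, with a median of 0.07 that was 0.03 with the length trend removed. The methyl group enzyme Gnmt was 1.58-fold higher with BPS (0.66 ± 0.04). Cbs, of homocysteine removal (-0.51 ± 0.04), and Kynu, of tryptophan breakdown (-0.51 ± 0.05), were higher with E2. Of 26 hepatokines, hormones the liver secretes, 6 were higher with BPS (3 with length and GC trends removed) and 12 with E2 (median -0.06, and -0.18 with the length trend removed), Hgfac, an activator of hepatocyte growth factor, among the latter (-0.95 ± 0.06).

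**Figure D4:**
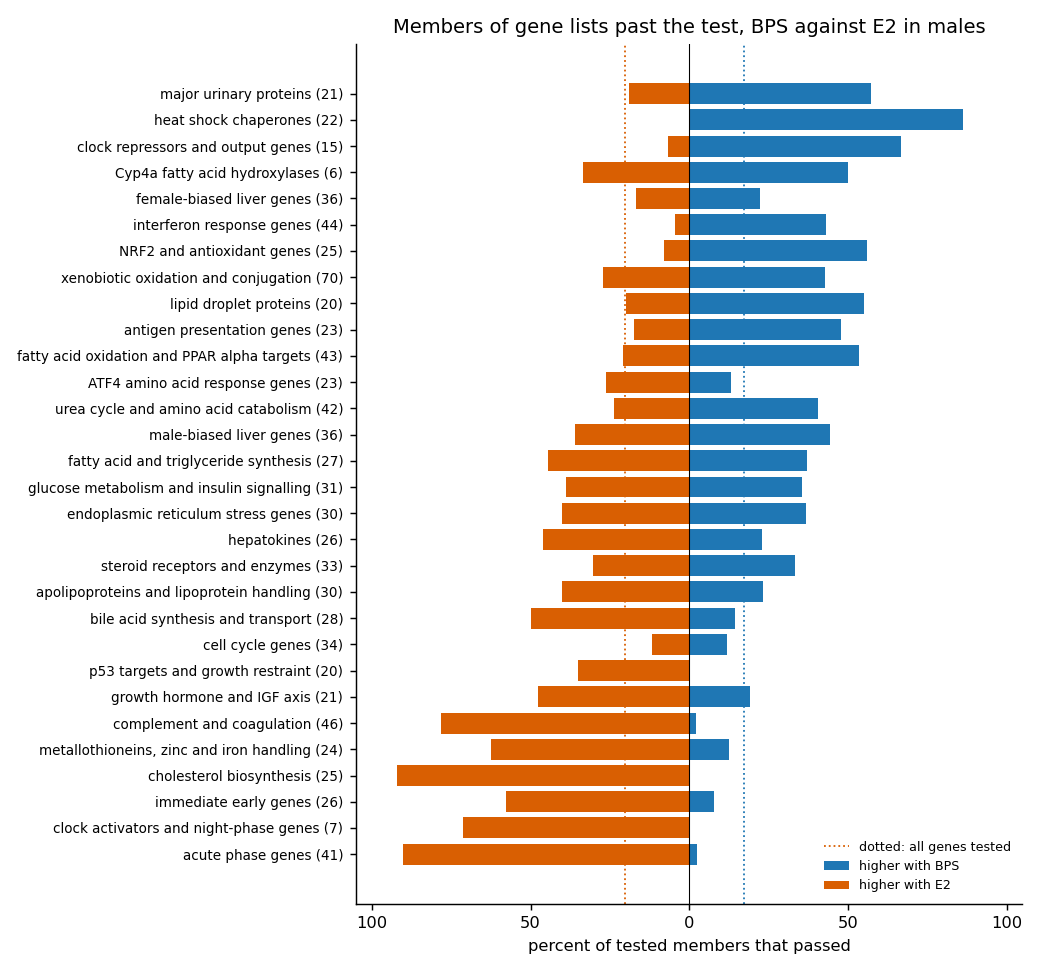
Percent of the tested members of 30 gene lists (number in brackets) that passed as higher with BPS (blue, to the right) or with E2 (orange, to the left), with dotted lines at the shares of all genes, 17.3% and 20.4%. Heat shock chaperones reach 19 of 22 on the BPS side, and cholesterol synthesis (23 of 25) and acute phase genes (37 of 41) reach furthest on the E2 side.

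Markers of other cells were counted in the same way. Of 16 endothelial markers 6 were higher with E2 and 1 with BPS, the hyaluronan receptor Lyve1 at 23.7, 17.7 and 23.4 CPM and at 5.86, 5.48 and 6.58 CPM (1.85 ± 0.12), although the list's sums were 570 to 593 and 614 to 648 CPM. Stellate cell markers summed to 623 to 660 and 606 to 657 CPM, and bile duct markers to 92.0 to 104 and 104 to 112 CPM. Of 7 erythroid genes 4 were higher with BPS, with Hbb-bs at 260 ± 19.8 and 161 ± 14.4 CPM, and Alas2 higher with E2 (-0.40 ± 0.06). The erythroid list summed to 525 to 605 and 407 to 473 CPM, with Rhag at 0 in the E2 group. None of 10 skeletal muscle markers passed, and 12 in the table summed to 5.09, 4.78 and 19.9 CPM with BPS, replicate 3 being the high one, and to 12.9 to 19.5 CPM with E2.

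Several of the largest fold changes were in genes of low level that belong to none of these lists. Higher with BPS were Mrap2, an accessory protein of melanocortin receptors (1.42, 3.07 and 2.25 CPM against 0, 0.0308 and 0.0630 CPM with E2, whose 3 counts give a ratio of 72.2 with a 95% counting interval of 24.4 to 353), and Igsf23, an immunoglobulin superfamily gene (4.18, 2.95 and 3.27 against 0.378, 0.0615 and 0 CPM, 4.53 ± 0.57). Rsph9 of the ciliary radial spoke (3.40 ± 0.45), the matrix link protein Hapln1 (3.00 ± 0.62) and the mucosal peptide Tff3 (2.85 ± 0.28) followed. Higher with E2 was Cfap53, a ciliary gene with 0 counts in the BPS libraries and 2.77, 2.15 and 2.08 CPM with E2. This is at least 74.8-fold higher, against a floor of 3 counts over the group. Tnr, the matrix protein tenascin R, was at 0.0634 to 0.0944 CPM with BPS and 5.42, 4.52 and 3.56 CPM with E2 (-5.69 ± 0.54). Myom2, a sarcomere protein, was at 0.0629, 0 and 0.444 CPM and at 7.68, 8.16 and 7.02 CPM (-5.48 ± 0.46), while the other muscle markers did not pass. Psmc3ip of meiotic recombination (-4.24 ± 0.40), the ubiquitin enzyme gene Ube2u (-4.24 ± 0.44) and Trat1, a T cell receptor adaptor (-3.66 ± 0.35), were also higher with E2, while among 13 T and NK markers tested 1 passed.

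The contrast between BPS and E2 was not the same in female offspring. In a fit of 24 exposed libraries the male minus female difference of the contrast passed for 26.4% of 13998 genes, more positive in males in 1604 (11.5%) and more negative in 2097 (15%). In this fit 4904 genes were called in males and 3508 in females. The female calls were 25.1% of genes tested, 13.5% higher with BPS and 11.6% higher with E2, the background for the female counts below. Both contrasts were called in 1842 genes, with the same sign in 1165 and opposite signs in 677. Of acute phase genes 36 of 41 were more negative in males. In females Saa1 was at 72.3, 73.4 and 81.8 CPM with BPS and 26.5, 34.7 and 29.8 CPM with E2, higher with BPS (1.32 ± 0.08), and Saa2 at 45.8, 43.1 and 48.8 and at 13.6, 16.7 and 16.2 CPM (1.57 ± 0.07). The male minus female differences were -6.50 ± 0.11 and -8.20 ± 0.10. Cholesterol synthesis had 23 of 25 genes more negative in males, complement and coagulation 38 of 46, and clock activators and genes of the opposite phase 7 of 7 (median -0.71 in males and 0.38 in females). The contrast followed transcript length in males and not in females, so the male minus female differences carry that trend. With the trend removed the male median of these activators was -0.48. The list counts of the sex difference are given without that correction. Clock repressors and output genes, of which 15 of 15 were higher with BPS in females, were more negative in males in 11, though Per2 (1.88 in males, 2.11 in females) and Per3 (1.31 and 1.34), both in this fit, did not differ past the test. Oxidation genes were more positive in males in 24 of 43.

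Among single genes, Scd1 was higher with E2 in males and with BPS in females (2010 ± 146 and 742 ± 15.5 CPM, difference -2.49 ± 0.08). Esr1 did the same, with 35.1 ± 0.331 CPM in female BPS and 16.3 ± 4.22 CPM in female E2 livers (difference -2.0 ± 0.20). The interferon-induced GTPase gene Tgtp1 went the other way, 8.86 ± 0.537 and 4.91 ± 0.391 CPM in males, and 16.6 ± 1.06 and 117 ± 6.70 CPM in females (difference 3.68 ± 0.14). Thrsp and Dbp were higher with BPS in both sexes, by 3.18 and 2.11 in males and by 4.49 and 2.67 in females in this fit. Cyp7a1 differed by 2.04 in males and 0.31 in females (difference 1.73 ± 0.08). Single genes were ranked among those past this test that averaged at least 1 CPM over the BPS and E2 groups of both sexes. Predicted genes, clones and pseudogenes were left out. Igsf23 (6.09 ± 0.59), Cib3 (4.64 ± 1.01) and Rsph4a (4.14 ± 1.14) had the largest positive differences. Tnr (-9.96 ± 1.74), Camk2b (-6.66 ± 0.54) and Crybb3 (-6.64 ± 0.66) had the largest negative ones after Saa2 was set aside. Tnr had 7 counts in female BPS and 0 in female E2 livers, at least 2.51-fold more against the floor of 3 counts, so its fitted difference depends on the prior count. Cib3 had 2 and 12 counts in female BPS and E2 livers, a ratio of 5.57 for E2 over BPS with a 95% interval of 1.24 to 51.2.

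**Figure D5:**
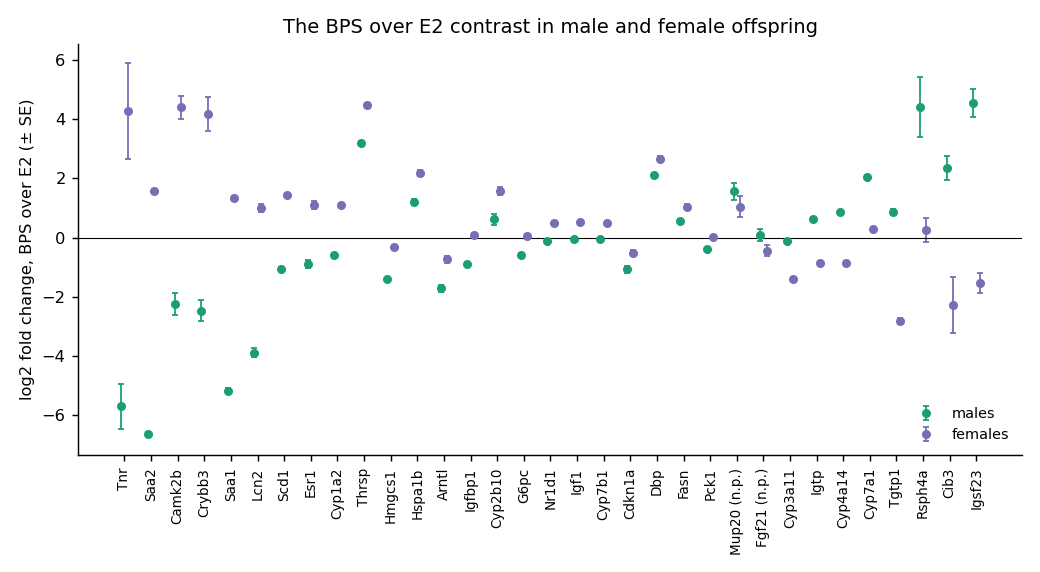
Log2 fold change of BPS over E2 with its SE in males (green) and females (purple) for panel genes and the genes with the largest differences between the sexes, in order of male minus female, with n.p. where the difference did not pass. Saa1, Saa2 and Lcn2 lie below 0 in males and above 0 in females, and Thrsp and Dbp above 0 in both.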

How the data were processed

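Total RNA of single livers was sequenced (SMARTER mRNA-Seq libraries, per the labels' protocols). The authors deposited whole-number counts per gene symbol, and the submitters' processing notes name HISAT2, HTSeq, DESeq2 and R 3.2.0. Which build, annotation and strand setting were used is not given in the sources used here. Group members are fixed by labels, while gene lists, naming rule and tests were chosen with earlier results of these data known, so no p value is given for a list. Counts of 12 exposed male libraries were filtered with filterByExpr, scaled by TMM and tested with edgeR 4.0.16 (glmQLFit robust, glmQLFTest) in R 4.3.3, adjusting over 13289 genes at 0.05. The sex difference used 24 exposed libraries. The text names the 12 largest changes each way at 1 CPM or more, 4 members with the smallest p per list, 25 panel genes, the 4 largest sex differences each way, and further list members where a list is described. Simulated data gave back 91% of 2-fold and 70% of 1.5-fold changes. The simulation changed 100 genes at each size, all averaging at least 1 CPM, and had no other difference and no length trend. These shares therefore do not give the recovery in the real data, where far more genes passed, or for genes of lower level. Counts limit precision: 1 count was 0.0293 to 0.0330 CPM in these libraries. Alternatives were DESeq2 1.42.0, RLE factors, no filter, a filter at 1 CPM, the 6 libraries alone, all 15 males, a replicate block, leaving out each library and, added after seeing the data, corrections for length or length and GC (longest GENCODE M21 transcript, matched for 98.0% of genes). Intervals and floors cover counting error only. Promoters are RefSeq's, matched by symbol. Some named genes are not reported here.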

Additional observations from a re-analysis of the deposited data

Results flagged for a closer look

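The sex difference was looked at one gene at a time in 33 genes, 25 panel genes and the 8 with the largest differences, which were chosen for them. It passed in 26.4% of all genes tested, so the count for this set is a description. In 31 of the 33 the BPS over E2 contrast differed between male and female offspring by the test of the difference itself (male minus female log2 fold change, edgeR, adjusted over 13998 genes). The length trend of the male contrast was not removed from these values. It was more negative in males for Tnr (-9.96), Saa2 (-8.20), Camk2b (-6.66), Crybb3 (-6.64), Saa1 (-6.50) and Lcn2 (-4.88). In each of these 6 genes the fitted female contrast lies above 0 and the male below 0. The same held for the lipid desaturase Scd1 (-2.49), the estrogen receptor Esr1 (-2.0) and the oxidase Cyp1a2 (-1.67). Both sexes lay on the BPS side, males less so, for Thrsp (-1.31), Hspa1b (-0.99), Cyp2b10 (-0.95), Dbp (-0.55) and Fasn (-0.49). Both lay on the E2 side, males more so, for Hmgcs1 (-1.08), Arntl (-0.98) and Cdkn1a (-0.55). In the glucose and growth genes Igfbp1 (-0.97), G6pc (-0.64), Igf1 (-0.57) and Pck1 (-0.40), and in Nr1d1 (-0.60) and Cyp7b1 (-0.56), the male contrast was also the lower.

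The contrast was more positive in males for Igsf23 (6.09), Cib3 (4.64), Rsph4a (4.14), Tgtp1 (3.68), Cyp7a1 (1.73), Cyp4a14 (1.71), Igtp (1.5) and Cyp3a11 (1.25). Rsph4a had 28 and 1 counts in the male BPS and E2 groups and 318 and 286 in the female ones, so its male contrast rests on few counts. Panel genes that did not differ past the test were Mup20 and Fgf21.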

How the results depend on the processing

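The counts of genes higher with BPS (2302) or E2 (2709) stayed within 1.5 times under every alternative run, at 2207 to 2476 and 2234 to 2764, and at 1963 to 2352 and 2253 to 2563 with a library left out. Genes past 2-fold (190 and 263) ranged from 148 to 217 and 201 to 276, and with a library left out from 180 to 248 and 225 to 268. The sex difference (1604 and 2097) ranged from 1522 to 1883 and 1964 to 2169, or 1358 to 1899 and 1789 to 2108. The length correction, chosen after seeing the data, shared 3933 calls with the uncorrected fit, 3927 of them with the same sign. For Igf1 it turned the sign (0.11), and for Fgf21 the sign turned with the length (-0.14) or length and GC correction (-0.072), and leaving out a library gave -0.045 to 0.26, below 0 without BPS replicate 3 (-0.045) or E2 replicate 3 (-0.0037). The cause was not tested. For the 60 list counts, 31 alternative values moved by over 1.5 times and 869 did not. Replicate numbers did not pair the livers (correlations of same-numbered deviations -0.10, -0.04 and -0.001), and a replicate block passed 5061 genes against 5011. Of list counts the block moved acute phase genes higher with BPS from 1 to 0. Genes with few counts in a group are limited by depth, and 3 counts over a group were the floor where it had none.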
